A study of Mus musculus with 8 samples.

Results

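The 10 genes described here encode proteins of granulocyte granules and cytosol together with transcription factors of the CCAAT/enhancer binding protein (C/EBP) family. They are Mpo, Elane, Prtn3, Ctsg, Ms4a3, Lyz2, S100a8, S100a9, Cebpa and Cebpe, chosen by name, and all 10 were found among the 52224 genes of the deposited table. Their RNA was measured in hematopoietic stem cells of mouse bone marrow, sorted as CD48-, CD150+ cells of the LSK fraction (lineage-negative, Sca-1-positive, Kit-positive). There were 4 libraries of genotype DekCon and 4 of genotype DekTg. The labels give no strain, age, promoter or further allele for either genotype, and do not say whether libraries came from separate mice or pools. DEK is a protein bound to chromatin, and the study asks about its part in stem cell function in Fanconi anemia. The comparison described here asks which transcripts differ between the 2 genotypes.

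Granulocytes carry antimicrobial proteins in granules that are made in sequence. Azurophil granules form first, at the promyelocyte stage, and hold myeloperoxidase and the serine proteases elastase, proteinase 3 and cathepsin G. Specific and gelatinase granules form later and hold lactoferrin, cathelicidin and matrix metalloproteinases, while S100A8 and S100A9 fill the cytosol of mature neutrophils. C/EBP alpha is required for the step into the granulocyte lineage and C/EBP epsilon for the later granules. Stem cell populations are known to carry low levels of some azurophil granule transcripts before commitment.

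Promoter sequence is shown for the peroxidase and the 3 proteases, because 3 of these genes ranged widely and together across libraries and Prtn3 ranged far less. RefSeq promoters (GRCm38.p6) were matched for 9 of the 10 members, and Cebpe was not matched. All are written on the gene's own strand. The Mpo, Elane and Ctsg stretches lie before the annotated gene (GENCODE M21). The Prtn3 stretch lies between exons of the annotated gene, in an intron of a longer noncoding transcript, and ahead of the protein-coding transcript that begins at 79879614. Capitals mark AGGAAGT, a core recognised by ETS factors such as PU.1.
Mpo, chr11:87793534-87793580, plus strand: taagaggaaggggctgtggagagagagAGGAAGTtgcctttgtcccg
Elane, chr10:79886198-79886246, plus strand: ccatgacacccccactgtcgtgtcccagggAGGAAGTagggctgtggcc
Prtn3, chr10:79879543-79879609, plus strand: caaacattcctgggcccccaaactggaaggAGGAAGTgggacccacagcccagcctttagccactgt
Ctsg, chr14:56102744-56102810, minus strand: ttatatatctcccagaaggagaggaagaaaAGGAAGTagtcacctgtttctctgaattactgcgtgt

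In the 250 bases before the RefSeq start, AGGAAGT or its reverse complement ACTTCCT was present in 6 of the 9 member promoters. Over 32851 promoters of the table the share was 7.7%. The 6 were Mpo, Elane, Prtn3, Ctsg, Lyz2 and S100a8. The C/EBP pattern TTGCNNAA, searched on both strands, was present in 1 of the 9 (S100a9) and in 9.6% of all promoters. The RUNX core TGTGGT, also searched on both strands, was present in Ctsg, Lyz2 and S100a9, against 4614 of the 32851 promoters. None of these matches overlapped one another in the member promoters. Prtn3 holds the AGGAAGT letters as Mpo, Elane and Ctsg do, although its levels ranged less across libraries than theirs.

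Levels are normalized read counts, that is, gene counts divided by 1 size factor per library. Depth is thus corrected for, whereas gene length is not. Recovered reads ran from 2525884 to 4101132 per library. Dek, the gene that names the genotypes, was listed between 395.2 and 632.3 in DekCon and between 1862 and 2710 in DekTg, but its DekTg values are not whole numbers of reads. The sort markers Kit (1072 to 1557), Ly6a, which encodes Sca-1 (110.0 to 248.5), and Slamf1, which encodes CD150, were present in all 8 libraries. Slamf1 was lower in every DekTg library (190.0 to 212.5) than in every DekCon library (227.7 to 300.4), with a log2 fold change of -0.40 that did not pass after adjustment (limma adjusted p = 0.711). Cd48 was present as well, at 128.2 to 258.6, although the cells were sorted as CD48-. Libraries 1 and 4 of a group were nearly alike. Their squared difference per gene was 1.61 (DekCon) and 1.73 (DekTg) times that expected from counting noise, against 4.22 to 10.75 times for other pairs within a group. They were kept as separate samples, and averaging them was run as an alternative. DekCon libraries 2 and 3 stood apart in progenitor genes. Dntt was 4.785 in DekCon 2 and 323.2 in DekCon 3 against 675.8 to 868.5 in the other 6 libraries. Cd34 was 623.9 and 1109 in these libraries against 1980 to 2265. The summed count of 7 multipotent progenitor markers was 5476, 1476, 2921 and 5316 in DekCon, in library order, and 4788 to 5389 in DekTg. Some stem cell markers were lowest in DekCon 2 and 3 too: Procr (13.4 and 40.52), Hlf (160.8 and 252.5) and Ly6a (110.0 and 135.7). Fgd5 was not (66.98 and 98.0, within 65.92 to 115.5 over all libraries). The summed count of 13 stem cell markers was 6825, 7520, 5883 and 6493 in DekCon and 5381 to 6281 in DekTg.

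None of the 10 members passed the threshold of an adjusted p of 0.05 between DekTg and DekCon (limma on log2(value + 1), adjusted over 37414 genes tested), where 13 genes or 0.0347% passed. The count of members past it was also 0 with edgeR and with DESeq2 on the recovered reads. At an unadjusted p under 0.05 there were 2 members, Mpo and Prtn3, both lower in DekTg, against 6.93% of all genes tested. The median log2 fold change of the 10 was -0.62, with 8 below 0, against a median of 0.0057 over all genes tested, of which 50.6% lay above 0. The 10 are not separate observations, since Mpo, Elane, Ctsg and Ms4a3 varied together across libraries. S100a8 and S100a9 changed sign in 6 and 7 of 23 alternative settings.

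**Figure D1:**
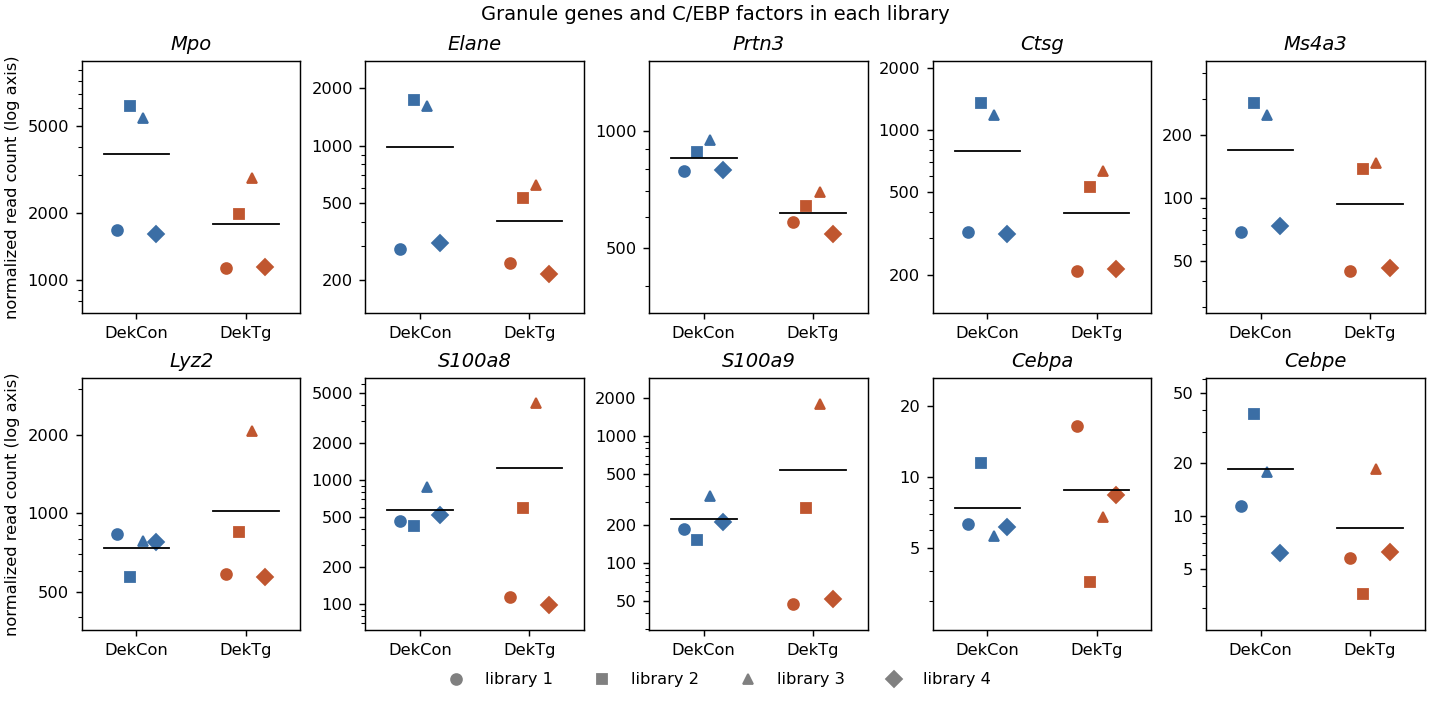
Normalized read count (log axis, scaled separately for each gene) of the 10 members in the 4 DekCon and 4 DekTg libraries; symbols mark the library number and bars the group means. Prtn3 is the member whose groups do not overlap, Mpo, Elane, Ctsg and Ms4a3 are higher in libraries 2 and 3 of both groups, and S100a8 and S100a9 are highest in DekTg library 3.

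Mpo, the peroxidase of azurophil granules that makes hypochlorous acid, lies on chromosome 11 from 87793581 to 87804413 (plus strand, GRCm38). Its normalized read counts in DekCon libraries 1 to 4 were 1677, 6147, 5441 and 1619, and in DekTg libraries 1 to 4 they were 1125, 1993, 2897 and 1139. Libraries 2 and 3 were the high ones in both groups, and the groups overlapped. The DekCon mean was 3721 ± 2411 (SD, n = 4) and the DekTg mean 1788 ± 843 (SD, n = 4). Gm11505, which overlaps Mpo on the other strand, was at 1.201 to 8.612 in the 8 libraries. The log2 fold change of Mpo, DekTg minus DekCon, was -0.90 (95% interval -1.72 to -0.08, limma adjusted p = 0.711). Single libraries moved it: it was -0.57 when DekCon replicate 2 was left out, -0.63 when DekCon replicate 3 was, and -1.21 when DekCon replicate 4 was.

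Elane encodes neutrophil elastase (chromosome 10, 79886247 to 79888215, plus strand). The 4 DekCon counts were 287.8, 1730, 1608 and 310.3, and the 4 DekTg counts were 244.8, 534.5, 621.1 and 213.1, in library order. As for Mpo, libraries 2 and 3 held the high values, and DekCon 1 and 4 lay within the DekTg range. The log2 fold change was -0.96 (95% interval -2.02 to 0.10, limma adjusted p = 0.736), and it was -0.53 when DekCon replicate 2 was left out and -0.56 when DekCon replicate 3 was.

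Ctsg, the gene of cathepsin G (chromosome 14, 56099881 to 56102574, minus strand), had counts of 323.3, 1344, 1175 and 313.3 in DekCon and 208.5, 529.7, 631.8 and 214.2 in DekTg. Its log2 fold change was -0.85 (95% interval -1.78 to 0.08, limma adjusted p = 0.732). Ms4a3, a membrane protein of granulocyte-monocyte progenitors (chromosome 19, 11629496 to 11640851, minus strand), was lower in level, with 68.46, 285.2, 251.6 and 73.32 in DekCon and 44.51, 138.1, 147.5 and 46.2 in DekTg. The difference for Ms4a3 was -0.77 on the log2 scale (95% interval -1.73 to 0.19, limma adjusted p = 0.763). Both genes were high in libraries 2 and 3 of each group, and for both the groups overlapped. Leaving out DekCon replicate 2 gave -0.49 for Ctsg and -0.42 for Ms4a3, and leaving out DekCon replicate 3 gave -0.56 and -0.48. The 2 DekCon libraries with the high values of Mpo, Elane, Ctsg and Ms4a3 are also the 2 with low multipotent progenitor markers. Of the stem cell markers, Procr, Hlf and Ly6a were lowest there as well, but Fgd5 was not. The summed count of 13 stem cell markers was highest of all 8 libraries in DekCon 2 (7520) and was 5883 in DekCon 3. The part of progenitor or stem cell content in the group differences was not tested.

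For these 4 genes the ratios of counts to Mpo varied less from library to library than the levels did. Mpo ranged 5.464-fold from its lowest to its highest library, Elane 8.117-fold, Ctsg 6.448-fold and Ms4a3 6.407-fold. Over the same 8 libraries the ratio of Mpo to Ctsg counts ran from 3.76 to 5.4, that of Mpo to Elane from 3.38 to 5.83, and that of Mpo to Ms4a3 from 14.4 to 25.3. Likeness of pattern was measured as the root mean square difference of centred log2(value + 1) over the 8 libraries, among 13362 genes with a mean of at least 20, predicted genes left out. The 5 genes most like Mpo were Ctsg (0.16), Ms4a3 (0.24), Cavin2 (0.27), Elane (0.27) and F2rl2 (0.33), where the root mean square of Mpo itself was 0.88. Cavin2 encodes a caveolar protein and F2rl2 a thrombin receptor. Members of the same list thus filled 3 of the 5 places, and Prtn3 ranked 566 (0.69).

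Libraries 2 and 3 lay above libraries 1 and 4 in both groups for 5 of the 8 members with a mean of at least 20, against 7.49% of 17587 genes of that level. The 5 were Mpo, Elane, Ctsg, Ms4a3 and Prtn3, and this split of libraries was described after the values were seen. In DekCon the mean of libraries 2 and 3 was 3.515 times that of libraries 1 and 4 for Mpo, 5.583 times for Elane, 3.958 times for Ctsg and 3.786 times for Ms4a3. In DekTg the same ratios were 2.16, 2.524, 2.748 and 3.149 respectively. A fit with a term for this split, added after the data were seen, called 2 of the 10 members lower in DekTg, Mpo (limma adjusted p = 0.0285) and Ctsg (limma adjusted p = 0.00822), against 0.0481% of all genes tested. Since the split is one that these genes themselves show, nothing is read from those calls. As a sum, markers of megakaryocytes moved with these genes, though single markers differed. In DekCon, 2 other sums were higher in libraries 2 and 3 too. They were erythroid (2312, 4625, 4130 and 2220) and mast cell, basophil and eosinophil markers (1370, 2615, 5769 and 1445), in library order. In DekTg these sums did not follow Mpo, at 2904, 4126, 2540 and 2961 and at 2174, 2210, 1584 and 2277. The summed count of 10 megakaryocyte markers was 3882, 11790, 6280 and 4067 in DekCon and 2906, 4570, 4394 and 3059 in DekTg, in library order, with none of the 10 at 0 in all libraries. Of these 10 markers 0 passed the test, but all 10 lay below 0, with a median log2 fold change of -0.71 against -0.62 for the members. An unadjusted p under 0.05 was found for 7 of them, against 6.93% of all genes tested. Groups that did not overlap, lower in DekTg, were found for 3, against 1.88%. The markers were measured in the same 8 libraries and are not independent observations. Pf4, the platelet chemokine gene in that list, ranked 12 in likeness to Mpo (0.36). Its DekTg counts were 696.4, 2334, 1727 and 670.9, in library order. Itga2b, also in that list, was 1225, 3859, 1664 and 1240 in DekCon and 1080, 724.3, 1087 and 1137 in DekTg. Itga2b thus did not follow Mpo in DekTg. The part of megakaryocyte-marked cells or RNA in the Mpo pattern was not tested, and in sorted populations more cells of a type and more RNA per cell cannot be told apart.

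**Figure D2:**
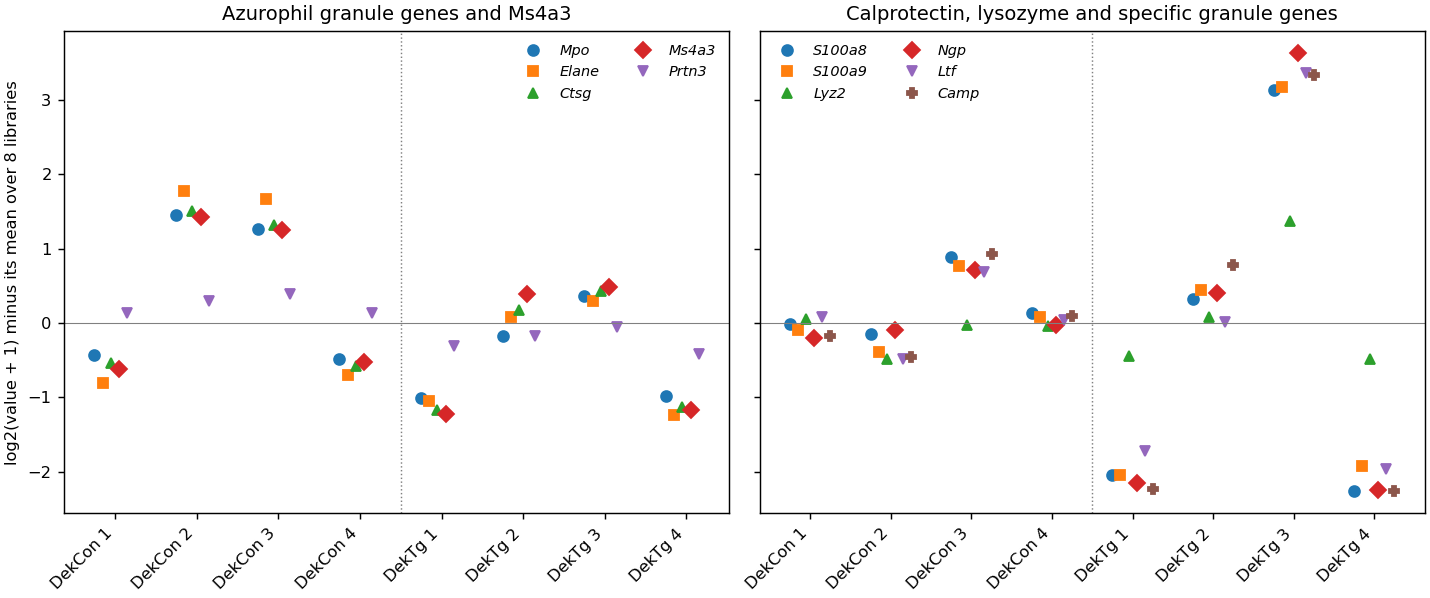
Log2(value + 1) of each gene minus its mean over the 8 libraries, by library; points are single libraries, and the dotted line parts DekCon from DekTg. On the left Mpo, Elane, Ctsg and Ms4a3 lie close together in every library while Prtn3 is above its mean in all DekCon and below it in all DekTg libraries; on the right S100a8, S100a9, Ngp, Ltf and Camp lie more than 3 above their means in DekTg library 3, and Lyz2 follows by less.

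Prtn3, the gene of proteinase 3, neighbours Elane on chromosome 10 (79874476 to 79883174, plus strand), with 3072 bases between them. Its counts were 789.8, 884.2, 947.9 and 794.2 in DekCon and 583.5, 642.6, 697.7 and 542.8 in DekTg. Every DekTg library lay below every DekCon library, as for 1.88% of all genes tested (3.97% counting either direction), and Prtn3 was the 1 member of 10 with groups that did not overlap. The DekCon mean was 854.0 ± 76.2 (SD, n = 4) and the DekTg mean 616.7 ± 67.8 (SD, n = 4), a ratio of 0.722. The log2 fold change was -0.47 (SE 0.12, 95% interval -0.73 to -0.21), and with an unadjusted p of 0.00129 it did not pass after adjustment (limma adjusted p = 0.639). Leaving out any single library gave -0.53 to -0.41, the narrowest range of the 10 members. Quantile normalization gave -0.31. The smallest adjusted p over the alternatives run was 0.0587, with DESeq2 after independent filtering, which adjusted over 3319 genes. Without that filtering DESeq2 gave an adjusted p of 0.268, and edgeR gave 0.653.

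Prtn3 and Elane were both higher in libraries 2 and 3 of each group but differed in amplitude. Prtn3 ranged 1.746-fold over the 8 libraries, and the ratio of Elane to Prtn3 counts ran from 0.364 in DekCon library 1 to 1.96 in DekCon library 2. The annotated Prtn3 gene overlaps Plppr3 on the other strand, and the strand setting of the counting is not given in the sources used here. Plppr3 had counts of 174.9, 81.34, 92.34 and 186.8 in DekCon and 204.4, 39.64, 123.2 and 281.4 in DekTg, with no difference between groups past the threshold (log2 fold change 0.05, limma adjusted p = 0.987). How many of the reads were shared between the 2 genes was not tested.

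S100a8 and S100a9 encode the calcium-binding subunits of calprotectin and lie on chromosome 3 (90668978 to 90670035, plus strand, and 90692632 to 90695721, minus strand), with 22596 bases between them. S100a8 had counts of 470.3, 426.8, 876.3 and 522.5 in DekCon and 113.7, 592.2, 4181 and 98.69 in DekTg. S100a9 had 185.1, 150.2, 337.3 and 209.2 in DekCon and 46.98, 269.1, 1800 and 51.45 in DekTg. For both genes DekTg library 3 was the highest of all 8, DekTg libraries 1 and 4 were the lowest, and the DekCon libraries lay between. DekTg library 3 was 8.889 times the median of the other 7 for S100a8 and 9.726 times for S100a9. The ratio of S100a8 to S100a9 counts stayed between 1.92 and 2.84 in all libraries, while S100a8 itself ranged 42.36-fold.

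The direction of the group difference for these 2 genes depended on the scale and on single libraries. The ratio of group means, DekTg over DekCon, was 2.171 for S100a8 and 2.458 for S100a9, and 0.467 and 0.556 without DekTg library 3. On the log2 scale the differences were -0.43 (95% interval -2.07 to 1.21, limma adjusted p = 0.93) and -0.18 (95% interval -1.79 to 1.43, limma adjusted p = 0.976). Without DekTg replicate 3 they were -1.54 and -1.27, and without DekTg replicate 1 they were 0.19 and 0.48. A difference in either direction is therefore not resolved by these libraries.

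Lyz2, lysozyme of granulocytes and macrophages (chromosome 10, 117277331 to 117282321, minus strand), had counts of 829.1, 569.4, 781.1 and 774.1 in DekCon and 585.2, 846.8, 2073 and 571.2 in DekTg. DekTg library 3 was again the highest, at 2.678 times the median of the other 7, and the groups overlapped. The log2 fold change was 0.26 (95% interval -0.35 to 0.87, limma adjusted p = 0.866) and turned to -0.15 without DekTg replicate 3. With libraries 1 and 4 averaged it was 0.50, and with edgeR 0.47. Lyz1, a close paralog of Lyz2 whose reads can be hard to assign, was listed at 2.402 to 8.612 in the 8 libraries.

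**Figure D3:**
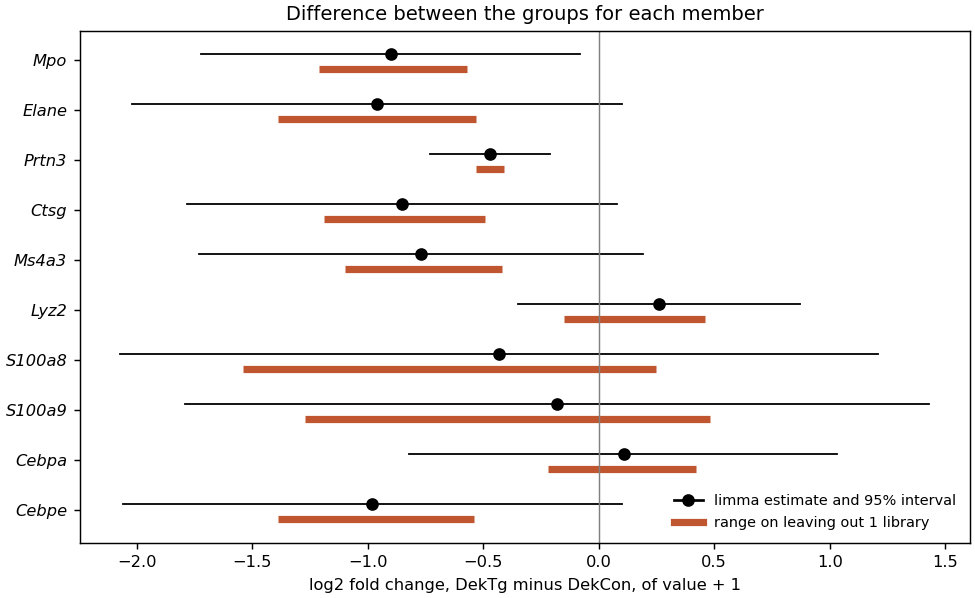
Log2 fold change, DekTg minus DekCon, on log2(value + 1) for the 10 members; points and thin lines are limma estimates with 95% intervals, and thick bars span the estimates on leaving out each of the 8 libraries. Mpo and Prtn3 have intervals that exclude 0 before adjustment, and the bars of Lyz2, S100a8, S100a9 and Cebpa cross 0.

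Genes of the later granules had the pattern of S100a8. The 5 genes most like S100a8 by the same measure were S100a9 (0.16), Ngp (0.21), Chil3 (0.23), Camp (0.23) and Ltf (0.25), where S100a8 itself had a root mean square of 1.58. Ngp, a neutrophil granule protein, had counts of 243.4, 260.3, 457.0 and 273.2 in DekCon and 61.81, 370.0, 3468 and 57.75 in DekTg. Ltf, which encodes the iron-binding lactoferrin, had 219.3, 148.3, 336.4 and 213.8 in DekCon and 62.64, 210.2, 2149 and 52.5 in DekTg. Both were thus highest in DekTg library 3 and lowest in DekTg libraries 1 and 4. Of the 14 genes of the specific and gelatinase granule list with a mean of at least 5, 12 were highest in DekTg library 3, against 10.9% of genes with a mean of at least 20. In 12 of the 14 this library was at least 2-fold above the median of the other 7, against 0.466%. The ratios ran from 1.23 (Olfm4) to 13.3 (Ngp), and among others named after their values were seen were the collagenase gene Mmp8 (7.228), the gelatinase gene Mmp9 (8.651) and the iron-scavenging Lcn2 (12.34).

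By the same count 5 of the 8 members with a mean of at least 20 had DekTg library 3 at least 2-fold above the median of the other 7. Elane (2.002) and Ms4a3 (2.012) lay just past that fold and Ctsg (1.954) and Mpo (1.727) just under it. The summed count of the specific and gelatinase granule list (16 genes) was 1261 to 1980 in DekCon, 621.4 and 607.9 in DekTg libraries 1 and 4, 1463 in DekTg library 2 and 9482 in DekTg library 3. The 12 mature neutrophil markers, which share Mmp8 with that list and Csf3r with the receptor list, summed to 320.6 to 641.4 in DekCon and 400.0 to 1302 in DekTg, the last in library 3. Ly6g, the neutrophil antigen often used in lineage gates, was at 37.85 in DekTg library 3 and at 6.698 to 15.44 in the other 7 libraries. None of the neutrophil markers was at 0 in all libraries, and Stfa2 was in the specific granule list. The sort was lineage-negative, and the part of neutrophil-lineage cells or RNA in these values was not tested.

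**Figure D4:**
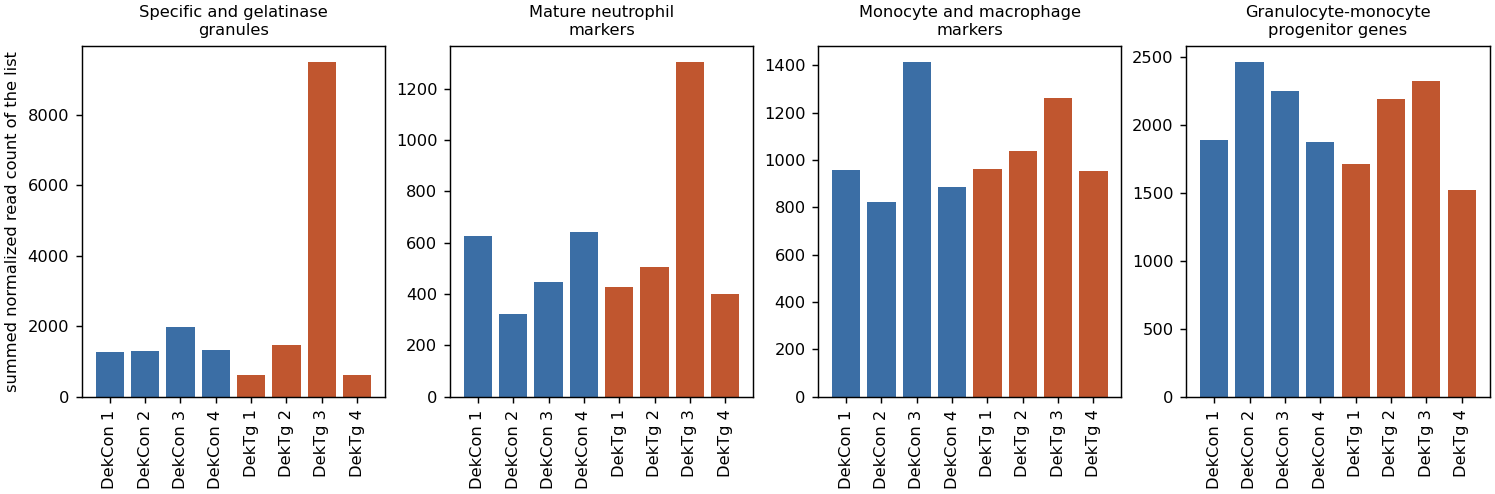
Summed normalized read count in each library of the specific and gelatinase granule list, the mature neutrophil, the monocyte and macrophage markers and the granulocyte-monocyte progenitor genes; bars are single libraries, blue for DekCon and orange for DekTg. DekTg library 3 stands at 9482 for the granule list and 1302 for mature neutrophil markers, while the progenitor genes stay between 1516 and 2457 in all libraries.

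Cebpa and Cebpe were the lowest of the 10 members and were read from few counts. Cebpa, a gene with no intron (chromosome 7, 35119293 to 35121928, plus strand), had values of 6.339, 11.48, 5.654 and 6.174 in DekCon and 16.48, 3.604, 6.793 and 8.399 in DekTg, from 3 to 20 reads per library. The highest was DekTg library 1, whose 20 reads give an exact Poisson 95% interval of 10.1 to 25.5, and the lowest was DekTg library 2, whose 3 reads give 0.743 to 10.5. These intervals cover counting error only. Gm45091 overlaps Cebpa on the other strand and was at 0 to 5.071, so reads of the pair may not be told apart. The groups overlapped, with a log2 fold change of 0.11 (95% interval -0.82 to 1.03, limma adjusted p = 0.974).

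Cebpe (chromosome 14, 54710360 to 54712174, minus strand) had values of 11.41, 38.28, 17.9 and 6.174 in DekCon and 5.769, 3.604, 18.44 and 6.3 in DekTg, from 3 to 40 reads. The high libraries were DekCon 2, DekCon 3 and DekTg 3, and the groups overlapped. Its log2 fold change was -0.98 (95% interval -2.06 to 0.10, limma adjusted p = 0.737), and -0.54 without DekCon replicate 2. The difference did not exceed the spread between libraries. Of 5 other genes listed with the C/EBP factors 0 passed. Cebpg, a family member without a transactivation domain, was at 327.9 to 503.3, Cebpd at 30.03 to 71.61 and Cebpb at 1.05 to 5.654 over the 8 libraries. By rule, Cebpz (log2 fold change 0.20, limma adjusted p = 0.781) and Ddit3 (-0.18, 0.865) had the smallest p in that list.

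Per kilobase of annotated exon (GENCODE M21), the order of mean levels in DekCon was Mpo (1087 ± 704), Elane (292.4 to 1758, SD 805.6), S100a8 (827 ± 296), Ctsg (764 ± 530), Lyz2 (561.1 ± 87.6), Prtn3 (493.1 ± 44.0), S100a9 (422 ± 156), Ms4a3 (90.04 ± 60.96), Cebpe (14.9 ± 11.3) and Cebpa (2.81 ± 1.04) in normalized reads per kilobase (SD, n = 4). The first 7 did not differ from their neighbours in that order beyond these spreads. In DekTg the first place went to S100a8 (1796 ± 2838), followed by S100a9 (1038 ± 1619) and Lyz2 (774 ± 543), an order that rests on library 3. Without that library (n = 3) Lyz2 was first (507 ± 118), Mpo was at 414 ± 145, S100a8 at 386.5 ± 404.4 and S100a9 at 235 ± 243. Mpo was at 522 ± 246, Elane at 410 ± 208, Ctsg at 383 ± 210 and Prtn3 at 356.0 ± 39.2 in DekTg. Ms4a3 was at 49.9 ± 29.9, Cebpe at 6.87 ± 5.41 and Cebpa at 3.35 ± 2.08. Annotated exon length includes all transcripts, so the per-kilobase values are approximate.

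Companions of the azurophil proteins include genes that process, pack or inhibit the granule proteases. Of 10 such genes, 9 were tested and 0 passed, with 6 below 0 and a median log2 fold change of -0.20. Ctsc, the peptidase that activates the serine proteases, was at 205.7 to 353.7 over the 8 libraries. Srgn, the proteoglycan core that packs granules, was at 1296 to 1878, and the elastase inhibitor Serpinb1a at 504.3 to 812.0. The members of smallest p were the lysosomal enzyme Hexa (log2 fold change -0.34, limma adjusted p = 0.711), the cystatin Cst7 (-0.38, 0.732) and the lysosomal enzyme Gusb (-0.24, 0.749). The later granule list had 14 tested genes, 0 past the threshold and a median of -0.19. Its 3 members of smallest p were Cyba (-0.35, limma adjusted p = 0.727), Olfm4 (0.31, 0.757) and Hp (-0.51, 0.812).

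Transcription regulators of the granulocyte-monocyte lineage act upstream of the granule genes. For 15 transcription regulators the count past the threshold was 0, with 7 above 0, 8 below 0 and a median of -0.05. Spi1, the gene of PU.1, had 224.4, 146.4, 141.3 and 233.1 in DekCon and 248.9, 64.86, 178.6 and 261.4 in DekTg, so it was lower in libraries 2 and 3 of both groups, where Mpo was higher. Runx1 was at 625.9 to 809.6, Myb at 516.8 to 774.8, Irf8 at 179.9 to 342.3 and Gfi1 at 10.14 to 22.32. Id2, an inhibitor of basic helix-loop-helix factors, had a log2 fold change of 0.47 with groups that did not overlap, as for 2.09% of all genes on the higher side (limma adjusted p = 0.711). Trib2, which promotes C/EBP alpha degradation, had -0.44 (0.711) and Zbtb7a -0.35 (0.749).

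Of 10 cytokine receptor genes 0 passed, with a median of 0.11. The common beta chains Csf2rb (log2 fold change -0.42, limma adjusted p = 0.711) and Csf2rb2 (-0.52, 0.711) are near-identical genes between which reads may be split. Flt3 had 0.73 (0.721), with DekCon libraries 2 and 3 at 160.8 and 385.4 and the other 6 at 688.3 to 846.7. Csf3r, the receptor of granulocyte colony-stimulating factor, was likewise lowest in DekCon libraries 2 and 3 (71.77 and 151.7 against 217.3 to 325.8). For 12 granulocyte-monocyte progenitor genes the median was -0.15 and 0 passed. Gstm1 (-0.32, limma adjusted p = 0.711), Cd33 (0.69, 0.727) and Fcnb (1.36, 0.767) had the smallest p, and Fcnb was at 0 in DekCon library 1. Of 7 other S100 genes 0 passed, with S100a1 at -0.44 (limma adjusted p = 0.711) and S100a4 at 0.84 (0.721), and neither was highest in DekTg library 3.

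Among marker lists of other cell types, members past the threshold were Igkc of the B lymphoid list, Jchain of the plasma cell list and Hba-a1, Hba-a2 and Hbb-bs of the erythroid list, all higher in DekTg. Igkc had a log2 fold change of 3.05 (limma adjusted p = 3.87e-05) and Jchain of 2.31 (limma adjusted p = 0.00021). The globins Hba-a1, Hba-a2 and Hbb-bs had 2.34, 3.57 and 3.14. All 5 had groups that did not overlap, as for 2.09% of all genes tested on the higher side, and 0.0347% of all genes tested passed. Of the 13 erythroid markers, 9 lay above 0 and 4 below. Their summed count was 2312, 4625, 4130 and 2220 in DekCon and 2904, 4126, 2540 and 2961 in DekTg, in library order. The erythroid sums of the groups thus overlapped. The 14 monocyte and macrophage markers, which share Ly6c2 with the progenitor list and Csf1r with the receptor list, summed to 821.0 to 1412 in DekCon and 953.3 to 1263 in DekTg, with 0 past the threshold. The 14 markers of mast cells, basophils and eosinophils summed to 1370 to 5769 in DekCon, highest in library 3, and to 1584 to 2277 in DekTg.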

How the data were processed

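RNA of sorted stem cells was extracted, amplified by Geo-seq and made into tagmentation libraries, per the labels' protocols. The submitters' processing notes list build mm10, Bowtie 0.12.9, HTSeq, Cufflinks 2.1.1 and DESeq2, with no role or order. The deposited table holds 1 signal per gene and library that its name calls FPKM. Within a library 99.99% of 417792 values are whole multiples of 1 step (tolerance 0.001 reads), so the signal was read as counts that the authors divided by a size factor. The exceptions, 25 values in 6 genes, include no member. The control columns are spelled DenCon and were matched to the DekCon titles by number.

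Genes with a value of 1 or more in 4 or more libraries were tested. Differences of log2(value + 1) were tested, two-sided, with limma 3.58.1 in R 4.3.3 using its trend option, with Benjamini-Hochberg adjustment. It was chosen for FPKM and kept, since it fits normalized values on a log scale. All 10 members were tested. Alternatives were edgeR 4.0.16 and DESeq2 1.42.0 on recovered reads, other pseudocounts, filters, scalings, limma options, a replicate block and leaving out libraries. On simulated reads for DekTg against DekCon (17820 genes), limma recovered 100% of 4-fold and 75% of 2-fold changes, with 11 false calls. These reads had the typical spread of genes at each level and no likeness between libraries, and genes of few reads were left out. The rates do not carry over to genes that varied more, such as Mpo (SE of log2 fold change 0.39) and S100a8 (SE 0.78). Because separate mice are not stated, p-values reflect only variation among these samples, possibly technical. Positions are from GENCODE M21 (GRCm38), which held 92.5% of the table's symbols. The members and lists were chosen with earlier results of these data known. Named beside the members were, per list, genes past the threshold or the 3 of smallest p (2 in lists under 8), and the 5 genes most like Mpo and S100a8. Other genes were named after their values were seen.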

Additional observations from a re-analysis of the deposited data

Results flagged for a closer look

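In a group of 4 libraries, 1 library was set apart when its gap to the nearest other exceeded the 95% critical share of the group's range (Dixon), which chance gives in about 1 of 20 groups. Of 96 groups of 4 examined, 18 were set apart, 12 of them by DekTg library 3. The genes are not independent, since many share that library's pattern. Several were also named for likeness to S100a8 (Ngp, Chil3, Camp and Ltf) or after their values were seen (such as Mmp8, Mmp9, Cd177 and Lcn2). The count therefore cannot be read against the share that chance gives. The shares of the range taken by the gap of DekTg library 3 were 0.879 for S100a8, 0.873 for S100a9, 0.908 for Ngp, 0.891 for Chil3, 0.849 for Camp, 0.925 for Ltf, 0.931 for Mmp8, 0.915 for Mmp9, 0.943 for Cd177, 0.918 for Lcn2, 0.928 for Hp and 0.877 for Cyba. In DekCon, Ngp was also set apart by library 3 (0.86), where its count was 457.0 against 243.4 to 273.2. Cebpa in DekCon was set apart by library 2 (0.883), at 11.48 against 5.654 to 6.339, from 12 reads. The remaining ones were S100a1 in DekCon, high in library 2 (0.87), Cebpb in DekCon, high in library 3 (0.834), Cebpd in DekTg, low in library 2 (0.884), and Hba-a2 in DekTg, high in library 2 (0.898).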

How the results depend on the processing

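There were 23 alternatives, of which 8 left out 1 library. Of 226 values of the members' log2 fold changes under them, 208 kept their direction and stayed short of the threshold, 16 changed sign and 2 passed. The 2 were Mpo (-0.90, adjusted p = 0.0285) and Ctsg (-0.85, adjusted p = 0.00822), in a fit with a term for libraries 1 and 4 against 2 and 3, which called 18 genes in all (0.0481%). That term was added after the data were seen and is the split these genes show themselves, so it supports nothing. In the other 22 alternatives 0 members passed. For S100a8 and S100a9 the sign turned with DESeq2, with or without independent filtering (1.12 and 1.30), with edgeR (1.12 and 1.29) and with libraries 1 and 4 averaged (0.17 and 0.42). Cebpa turned to -0.11 with libraries 1 and 4 averaged and was not tested with a value of at least 10 required. Leaving out 1 library gave -1.54 to 0.25 for S100a8, -1.27 to 0.48 for S100a9 (0.05 without DekCon replicate 3), -0.15 to 0.46 for Lyz2, -0.22 to 0.42 for Cebpa, -1.39 to -0.53 for Elane, -1.19 to -0.49 for Ctsg and -1.10 to -0.42 for Ms4a3. Over all genes 13 passed, against 4 without the trend, 8 without the 6 genes holding values that are not whole, and 13 to 22 on leaving out 1 library (22 without DekTg replicate 2). Dek is among the 6 genes left out and passed in the main fit (limma adjusted p = 1.14e-06), so its removal by itself took away a call. The causes of the other changes were not tested. The replicate block gave 15 genes and 0 members, with a limma adjusted p of 0.0629 for Ctsg and 0.103 for Mpo. Over all genes tested, same-numbered libraries did not deviate together (correlations of deviations -0.003 to 0.02, against -0.053 to 0.054 for other numbers). Taken over all genes at once, this measure cannot tell whether the numbers pair libraries for a part of the genes. DESeq2 after independent filtering gave no adjusted p for Ms4a3, Cebpa and Cebpe.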
